A study of Mus musculus with 2 samples.

Results

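The VEGF family ligands, their receptors and the neuropilins were described in cultured mouse embryonic endothelial cells (ECs, the cells that line blood vessels) labelled Snail1 KO and WT. All probe sets annotated to exactly 1 of 9 gene symbols were taken: the ligand genes Vegfa, Vegfb, Vegfc and Pgf, the receptor genes Kdr, Flt1 and Flt4, and the co-receptor genes Nrp1 and Nrp2. These gave 22 of the 45101 probe sets on the array and 9 of the 18193 genes that could be named. Snail1 KO ECs and WT ECs came from C57/BL6 embryos at E10.5, and both carried the floxed allele Snail1f/f, on which the recombinase Cre acts. Snail1 KO ECs had received an adenovirus with Cre and WT ECs one with βGal (β-galactosidase), and both were left for several days in medium with 20% serum and endothelial growth factors. Each group is 1 array of 1 culture, and a control with Cre but no floxed allele was not analysed here, so loss of Snail1 and effects of Cre or of its virus cannot be told apart. Without replicates no spread between cultures is known, so no difference was tested, and each is given by its size.

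VEGF signalling guides the growth, sprouting and permeability of blood and lymphatic vessels. The secreted ligands bind receptor tyrosine kinases on endothelial cells: VEGF-A, the product of Vegfa, signals mainly through VEGFR-2 (Kdr), while VEGFR-1 (Flt1) binds VEGF-A, VEGF-B and placental growth factor and limits how much VEGF-A reaches VEGFR-2. VEGF-C acts through VEGFR-3 (Flt4), which is best known in lymphatic endothelium, and the neuropilins are co-receptors that also bind class 3 semaphorins. Snail1 is a zinc finger repressor known to bind the E-box spelled CAGGTG.

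The E-box letters were looked for around transcript starts of the 9 genes, since a promoter is where such a factor could bind. RefSeq (GRCm38.p6) gave 11 windows for them, each of 300 bases that run from 250 before to 50 after a transcript start. For Flt1, Kdr, Nrp1 and Pgf every start used lies inside the annotated gene, 427 bases in for Flt1, 617 for Kdr, 482 for Nrp1, and 472 and 1803 for Pgf, so the outermost ends of these 4 genes were not searched. CAGGTG or its reverse complement CACCTG, which together cover both strands, was found in 3 of the 11 windows (27.3%), against 6640 of all 32851 windows (20.2%). The windows that held it belonged to Flt4, at position -236, to the outer of the Pgf starts, at -238, and to a second start of Vegfa that lies 7214 bases inside the gene, at -186 and -178. Positions count back from the transcript start and name the first base of the match. The first start of Vegfa, another start of Pgf and the windows of Vegfb, Vegfc, Kdr, Flt1, Nrp1 and Nrp2 did not hold these letters. The letters around each match follow, with the E-box in capitals, 5′ to 3′ along the strand of the gene, as 100 bases for Flt4 (chr11:49609429-49609528, plus strand) and 30 bases each for Pgf (chr12:85177534-85177563, minus strand) and the inner start of Vegfa (chr17:46025328-46025357, minus strand).
Flt4: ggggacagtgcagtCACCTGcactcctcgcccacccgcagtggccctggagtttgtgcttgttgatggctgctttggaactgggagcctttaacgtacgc
Pgf: ctccagaagagcCAGGTGcaaccttggctg
Vegfa: tcaccatgCAGGTGggCACCTGcggcacag
Of the 3 genes with a match, Flt4 and Vegfa were higher and Pgf was lower on the Snail1 KO array, by the values given below. A match of letters is no measure of binding.

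Values are log2 expression values from RMA, in which 1 unit is a 2-fold difference, and each difference is Snail1 KO ECs minus WT ECs. A gene is represented by its brightest probe set, the one with the highest mean of the 2 arrays. A gene was analysed when that mean exceeded the 40th percentile of probe sets, a log2 value of 3.97, which left 12874 genes. All 9 genes and all 22 probe sets passed, with 4.46 as the lowest single value among them. The targeted gene, Snai1, had a log2 value of 3.59 in Snail1 KO ECs and 5.33 in WT ECs in its 1 probe set. The 4 control probe sets for Cre lay between 11.87 and 12.86 in Snail1 KO ECs and between 2.69 and 3.83 in WT ECs. The endothelial genes Cdh5 (VE-cadherin) and Pecam1 had log2 values of 11.46 and 10.22 in Snail1 KO ECs and of 11.34 and 10.18 in WT ECs, well above the filter level on both arrays.

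**Figure D1:**
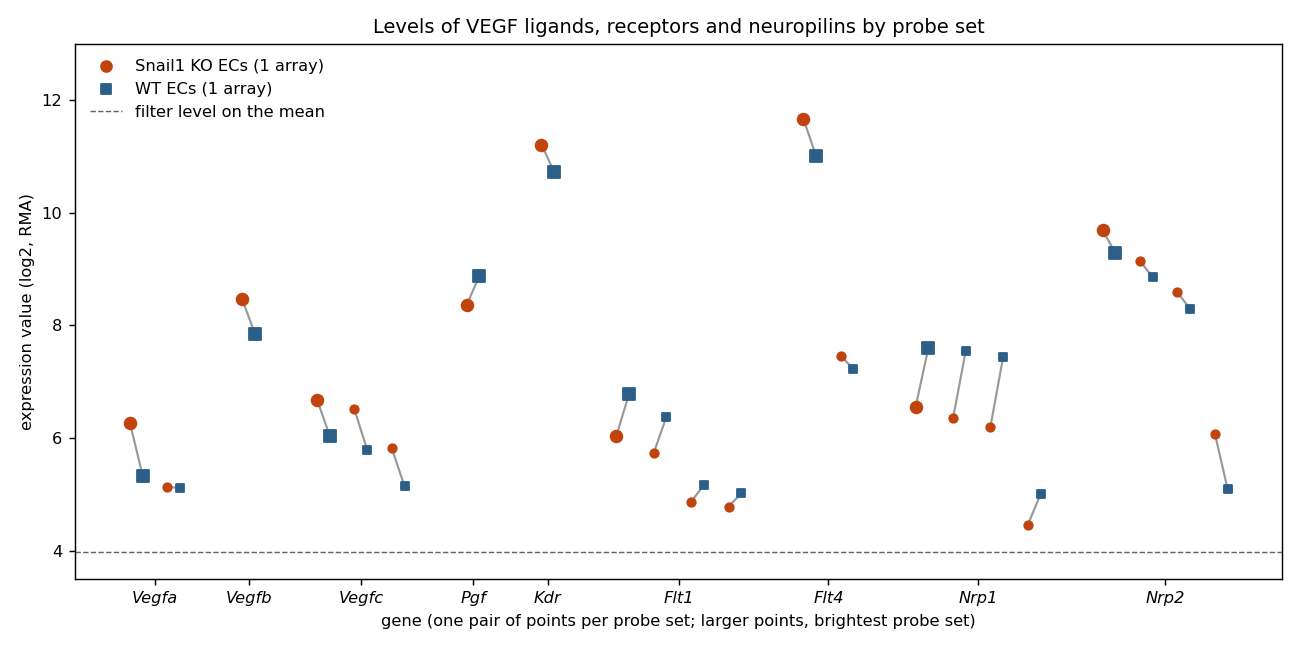
Log2 expression values (RMA, vertical axis) of every probe set of the 9 genes (horizontal axis). Circles are the Snail1 KO array and squares the WT array, 1 array each, larger points are the brightest probe set of a gene, and the dashed line is the filter level of 3.97; the circle lies below the square in every probe set of Nrp1, Flt1 and Pgf and above it in all others.

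The family split by gene. Vegfa, Vegfb, Vegfc, Kdr, Flt4 and Nrp2 were higher in Snail1 KO ECs and Pgf, Flt1 and Nrp1 were lower, with a median log2 difference of 0.49 and a mean of 0.16 over the 9 genes, against a median of -0.0083 over all genes analysed. Only Nrp1 differed by 2-fold or more in its brightest probe set. This is 1 of 9 genes lower at 2-fold, where 1.84% of all genes analysed were, and 0 of 9 higher, where 0.971% were. At 1.5-fold, 4 of the 9 were higher (44.4%, Vegfa, Vegfb, Vegfc and Flt4) against 5.06% of all genes, and 2 were lower (22.2%, Flt1 and Nrp1) against 6.08%. At 3-fold, 0 of the 9 were higher, where 0.179% of all genes were, and 0 were lower, where 0.699% were. The 9 genes were chosen with earlier results of these data known, so these counts are no independent evidence. Every probe set of a gene had the same sign in all 6 genes that have several probe sets. For Vegfa the shared sign rests on a difference of only 0.02 in its dimmer probe set. Among all analysed genes with several analysed probe sets, 3389 of 6053 (56.0%) had 1 sign throughout. Those genes were not matched to the 6 for size of difference, so this comparison too is no independent evidence.

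Of the ligands, Vegfa, which encodes the principal angiogenic factor, had a log2 value of 6.26 in Snail1 KO ECs and 5.33 in WT ECs in its brightest probe set (1420909_at). The difference of 0.93 is 1.91-fold, and 1.27% of all genes analysed had a higher one. The other probe set (1451959_a_at) did not show it, with 5.13 in Snail1 KO ECs and 5.11 in WT ECs, so the mean over both is 0.48. Which transcript forms each probe set reads was not analysed here.

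Vegfc, the ligand of VEGFR-3, was higher by a similar amount in all 3 of its probe sets. The brightest read 6.68 in Snail1 KO ECs and 6.04 in WT ECs, a difference of 0.64. The others read 6.51 and 5.81 in Snail1 KO ECs and 5.79 and 5.14 in WT ECs, with differences of 0.72 and 0.67. Vegfc was thus the ligand gene whose probe sets lay closest together among those with several. Vegfb, a ligand of VEGFR-1 that does not bind VEGFR-2, has 1 probe set, which read 8.46 in Snail1 KO ECs and 7.85 in WT ECs. That is 1.53-fold higher, a log2 difference of 0.61.

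Pgf, which encodes placental growth factor, also a ligand of VEGFR-1 alone among the 3 receptors, was the 1 ligand gene that was lower. Its single probe set read 8.36 in Snail1 KO ECs and 8.88 in WT ECs, a log2 difference of -0.52 (1.43-fold lower). The difference for Vegfc exceeded that for Pgf by 1.16 log2 units in the brightest probe sets, and by 1.16 to 1.24 over all of them. For Vegfa against Pgf the gap was 1.45, or 0.54 with the dimmer Vegfa probe set. Both ligands that bind VEGFR-1 and not VEGFR-2 therefore differed in opposite directions, Vegfb upward and Pgf downward.

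Of the receptors, Kdr, which encodes the main signalling receptor for VEGF-A, read 11.21 in Snail1 KO ECs and 10.73 in WT ECs in its 1 probe set. The log2 difference was 0.49 (1.40-fold), and 7.67% of all genes analysed had a higher one. Flt4, which encodes the receptor for VEGF-C, read 11.68 in Snail1 KO ECs and 11.01 in WT ECs in its brightest probe set (1444052_at). This is 1.59-fold, a log2 difference of 0.67. The dimmer Flt4 probe set (1421442_at) read 7.46 in Snail1 KO ECs and 7.23 in WT ECs, a difference of 0.24. Flt4 and its ligand gene Vegfc were thus both higher on the Snail1 KO array.

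Flt1, which encodes the receptor that binds VEGF-A tightly but signals weakly, was lower in all 4 probe sets. The brightest (1451756_at) read 6.04 in Snail1 KO ECs and 6.78 in WT ECs, a log2 difference of -0.74 (1.67-fold lower). The next (1419300_at) read 5.73 in Snail1 KO ECs and 6.38 in WT ECs, a difference of -0.64. The remaining pair, 1440926_at and 1454037_a_at, were dimmer, at 4.86 and 4.78 in Snail1 KO ECs and 5.17 and 5.02 in WT ECs, and differed less, by -0.31 and -0.25. Flt1 is also made in a secreted form that traps ligand, and these values do not separate it from the membrane receptor.

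The receptor genes thus differed in opposite directions. The Kdr difference exceeded that of Flt1 by 1.23 log2 units in the brightest probe sets and by 0.74 to 1.23 over all probe sets. The Flt4 difference exceeded that of Flt1 by 1.41, and by 0.48 to 1.41 over all probe sets. Between Flt4 and Kdr the gap was 0.18, and it changed sign over the Flt4 probe sets, from -0.25 to 0.18.

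**Figure D2:**
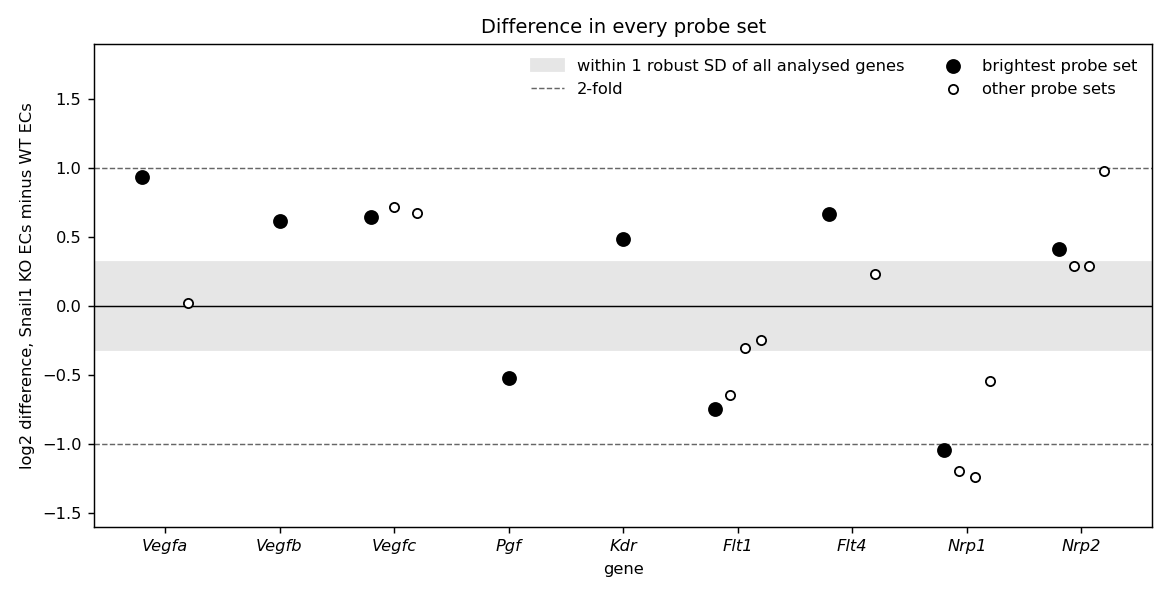
Log2 difference (Snail1 KO ECs minus WT ECs, vertical axis) in each of the 22 probe sets, by gene. Filled points are the brightest probe set and open points the others, the grey band is 1 robust SD (0.32) of the differences over all genes analysed, and dashed lines mark 2-fold; 3 of the 4 Nrp1 probe sets lie past the lower line and none of the 22 past the upper line.

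Nrp1, the neuropilin that assists VEGF-A at VEGFR-2, showed the largest difference of the 9 genes. Its brightest probe set (1448943_at) read 6.55 in Snail1 KO ECs and 7.59 in WT ECs, a log2 difference of -1.04 (2.06-fold lower), and 1.69% of all genes analysed had a lower one. Another pair (1448944_at and 1418084_at) read 6.35 and 6.20 in Snail1 KO ECs and 7.54 and 7.44 in WT ECs, with differences of -1.20 and -1.24. The dimmest (1457198_at) read 4.46 in Snail1 KO ECs and 5.0 in WT ECs, a difference of -0.54. All 4 probe sets were thus lower, and 3 of them by more than 2-fold.

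Nrp2, the neuropilin that assists VEGF-C at VEGFR-3 in veins and lymphatic vessels, was higher in all 4 of its probe sets. The brightest (1435349_at) read 9.70 in Snail1 KO ECs and 9.28 in WT ECs, a log2 difference of 0.41 (1.33-fold). A further pair, 1456778_at and 1426528_at, each differed by 0.29, with 9.14 and 8.59 in Snail1 KO ECs and 8.86 and 8.29 in WT ECs. The dimmest (1447343_at) differed most, with 6.08 in Snail1 KO ECs and 5.10 in WT ECs, a difference of 0.98. The difference for Nrp2 exceeded that for Nrp1 by 1.46 log2 units in the brightest probe sets, and by 0.83 to 2.22 over all of them.

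The differences were set against the spread of other genes at the same level, taken as the robust SD among the 500 analysed genes nearest in mean level. This spread was 0.30 to 0.36 around the 9 genes. The absolute difference was over 2 times that spread for 5 genes: 3.26 times for Nrp1, 2.99 for Vegfa, 2.18 for Flt4, 2.12 for Flt1 and 2.08 for Vegfb. Vegfc, Pgf, Kdr and Nrp2 lay between 1.39 and 1.79 times. This is a spread between genes on 2 arrays and does not stand for a spread between cultures. The share of all analysed genes past 2 times their own local spread was not computed. The count of 5 genes therefore has no comparison and is only a description of size.

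**Figure D3:**
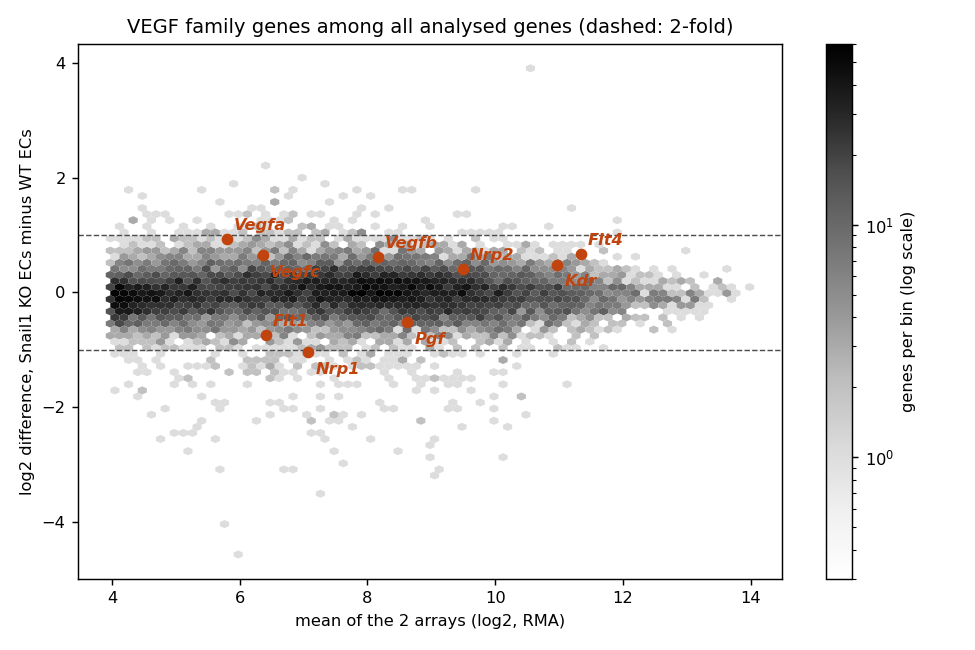
Log2 difference (Snail1 KO ECs minus WT ECs, vertical axis) against the mean log2 value of the 2 arrays (horizontal axis) for the 12874 genes analysed, each by its brightest probe set. Grey bins are shaded by the number of genes on a log scale and coloured points are the 9 genes, of which Nrp1 alone lies past a dashed 2-fold line.

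Other genes of the VEGF pathway were taken from 7 lists by role, and 93 of 107 listed genes were analysed. Of these, 3 were at least 2-fold higher, where 0.971% of all genes were, and 8 at least 2-fold lower, where 1.84% were, and the median log2 difference was -0.0043. The lists were written with earlier results of these arrays known, so their counts are no independent evidence. Of the 8 lower genes, 7 were in 1 list, that of genes known to respond to VEGF in endothelium. Without that list, 2 of 76 genes were higher and 1 was lower at 2-fold. Of all 12874 genes analysed, 12512 were within 2-fold, so a list with few genes past that size is the usual case. By sign alone, 6289 of all genes analysed were higher and 6554 lower.

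Among the other ligands, the remaining VEGF gene, Vegfd, was below the filter level in all 3 probe sets, at 3.30 to 3.57 in Snail1 KO ECs and 2.96 to 3.52 in WT ECs. Of the 4 analysed genes of the related PDGF ligands, which act mainly on mural and mesenchymal cells, 3 were lower and none reached 2-fold. Pdgfd read 7.15 in Snail1 KO ECs and 7.91 in WT ECs, a difference of -0.77, with -0.30 and 0.02 in its other probe sets. Pdgfa read 6.70 in Snail1 KO ECs and 7.31 in WT ECs, a difference of -0.61, with -0.54 in its other probe set.

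None of the 8 analysed oxygen sensing genes, which set the activity of the hypoxia-inducible factors that drive Vegfa, reached 2-fold. By sign, 7 of them were higher and 1 lower. None of the 9 analysed genes of ligand processing reached 2-fold either, and 2 were higher and 7 lower. Of all 12874 genes analysed, 12512 were within 2-fold, 6289 were higher and 6554 lower. Egln3, a prolyl hydroxylase that is itself induced by the hypoxia-inducible factors, read 9.21 in Snail1 KO ECs and 8.52 in WT ECs. Its difference was 0.69, with 0.92 in its other probe set. Egln1, the main oxygen-sensing prolyl hydroxylase, differed by 0.36 and 0.40. Of the processing genes, Adamts1, a metalloprotease that can bind VEGF-A, differed by -0.39. Ccbe1, a cofactor of VEGF-C maturation, differed by -0.38, with -0.37 to -0.09 in its 3 other probe sets. Its brightest probe set read 4.08 in Snail1 KO ECs and 4.46 in WT ECs, close to the filter level.

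Among the 11 analysed transcription factors with known roles in expression of the receptors, Prox1 alone was past 2-fold. Of all genes analysed, 0.971% were higher and 1.84% lower at that size. Prox1, the lymphatic fate factor known to raise Flt4, read 10.63 in Snail1 KO ECs and 9.57 in WT ECs, a difference of 1.06, with 1.02 and 1.47 in its other probe sets. Sox18, an endothelial factor upstream of Prox1, read 12.06 in Snail1 KO ECs and 11.34 in WT ECs, a difference of 0.72. The related SoxF genes Sox7 and Sox17, named after their values were seen, differed the other way, by -0.68 and -0.46. The list as a whole had 6 genes higher and 5 lower.

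At the membrane, all 7 analysed partners of the receptors were within 2-fold in their brightest probe sets, as were 12512 of all 12874 genes analysed. Efnb2, the ephrin that takes part in VEGF receptor internalisation, differed by -0.53, but its other probe sets ranged from -0.24 to 0.99. Ptprb, the endothelial phosphatase VE-PTP, which dampens VEGFR-2 signalling, differed by 0.28.

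Of the 37 analysed signal transducers, 35 were within 2-fold, as were 12512 of all 12874 genes analysed, and the median was -0.0007. Nfatc1, a calcineurin-dependent transcription factor, read 10.04 in Snail1 KO ECs and 8.72 in WT ECs, a difference of 1.32 (2.50-fold), with 0.86 to 1.63 in its 4 other probe sets. Pla2g4a, the phospholipase that frees arachidonic acid, read 4.27 in Snail1 KO ECs and 6.46 in WT ECs, a difference of -2.20 (4.59-fold lower).

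Of the 17 analysed genes known to respond to VEGF, 7 were lower at 2-fold, where 1.84% of all genes analysed were. At the same size 1 was higher, where 0.971% were, and the median log2 difference of the list was -0.65. This list too was written with earlier results of these arrays known, so its counts are no independent evidence. The lower genes were Ptgs2, a prostaglandin synthase that uses the product of Pla2g4a, at -3.08, Esm1, a proteoglycan of sprouting tip cells, at -2.55, and F3, tissue factor, at -1.62. The transcription factors Egr1, Nr4a1 and Nr4a2 followed at -1.53, -1.46 and -1.18, and the peptide gene Apln was at -1.47. Another Nr4a2 probe set had the opposite sign, at 0.15, and F3 read 3.39 in Snail1 KO ECs, below the filter level. Dll4, the Notch ligand of tip cells, was higher by 1.13, with 0.83 in its other probe set. Several of these genes respond to many other signals too.

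**Figure D4:**
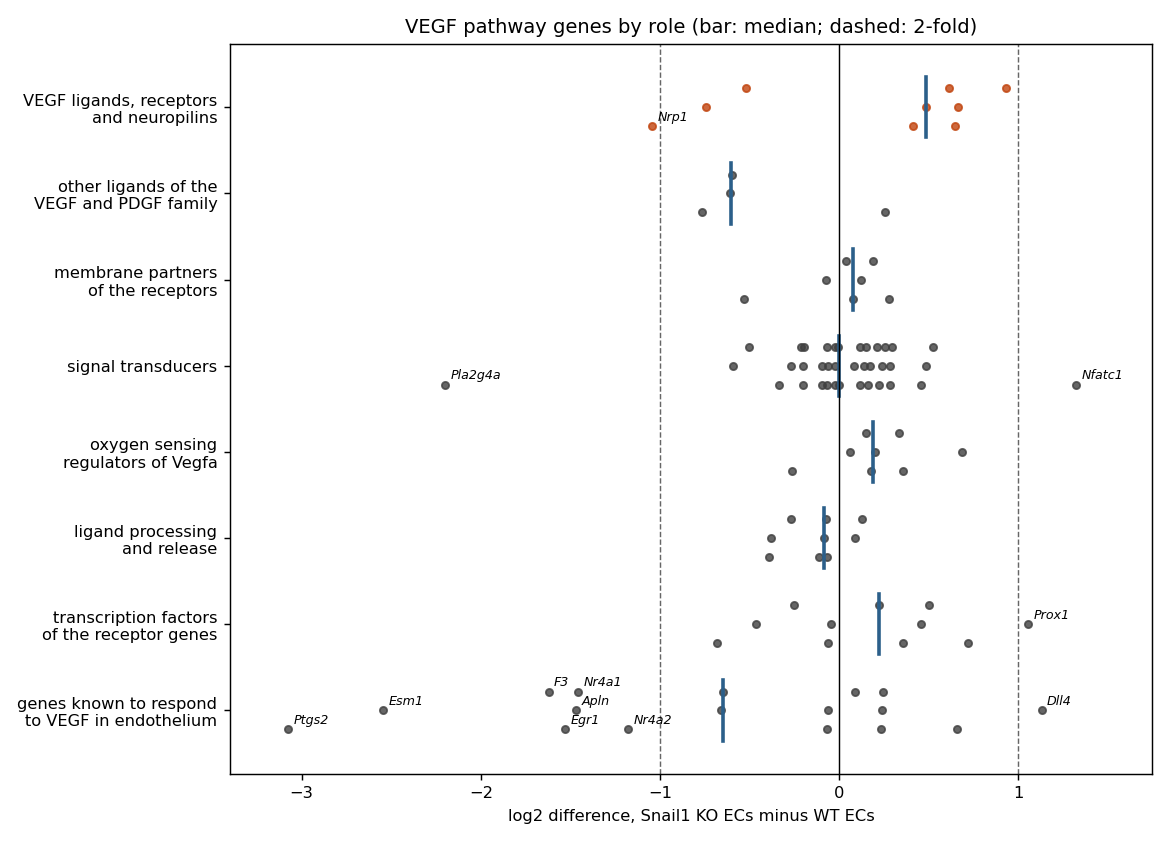
Log2 difference (Snail1 KO ECs minus WT ECs, horizontal axis) of each analysed gene, by role in the VEGF pathway (vertical axis). Points are genes, blue bars the median of a list and dashed lines 2-fold, and genes past 2-fold are named; the VEGF-responsive list has 7 genes past the lower line, and the top row shows the 9 genes split between both sides with a gap around 0.

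Markers of the cell types a culture could hold were measured on the same arrays, since in bulk RNA fewer cells of a type and less RNA per cell cannot be told apart. Summed linear signals cover all listed markers, including those below the filter level, while medians and counts cover the analysed ones. Of 12 endothelial markers, 11 were analysed, with a median difference of 0.03. The summed signal was 29800 in Snail1 KO ECs and 29600 in WT ECs. Cldn5 was 2.11-fold higher, Cd34 3.07-fold lower, and Vwf lay under the filter level in Snail1 KO ECs and in WT ECs. Of 10 smooth muscle and pericyte markers, 8 were analysed, 3 higher and 5 lower. Of all 12874 genes analysed, 6289 were higher and 6554 lower. At 2-fold, 2 of the 8 were lower, where 1.84% of all genes analysed were. The summed signal of the 10 was 953 in Snail1 KO ECs and 3470 in WT ECs. That gap came mostly from Tagln (-2.54) and Acta2 (-1.85), while Rgs5 and Myh11 had means below the filter level. The other Acta2 probe sets differed by -0.36 and 0.20. The part of these markers in the lower Nrp1, Flt1 and Pgf values was not tested. Fibroblast markers summed to 3630 in both groups, with 4 of 6 analysed, and leukocyte markers to 252 in Snail1 KO ECs and 265 in WT ECs, with 3 of 7 analysed. Of 4 epithelial markers 3 were analysed, with Krt18 2.45-fold lower, and the sum over all 4 was 85.3 in Snail1 KO ECs and 133 in WT ECs. Of 4 neural markers 2 were analysed, and the sum over all 4 was 65.0 in Snail1 KO ECs and 69.0 in WT ECs.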

How the data were processed

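The authors deposited log2 expression values, 1 per probe set and array, produced by RMA (package affy), per the submitters' processing notes, which give no versions. RMA quantile-normalizes arrays, so a change in total mRNA cannot be seen, and it compresses differences of dim probe sets. No detection calls were used, so signal over background is unknown for single probe sets. Genes were named from GEO's platform annotation, which can be old, and 34945 probe sets had 1 symbol. The Entrez identifiers of all 9 genes led to the same symbols in RefSeq (GRCm38.p6). Of the pathway list genes, 8 had no probe set of their own symbol and were not analysed here.

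The difference was Snail1 KO ECs minus WT ECs, with genes counted at 2-fold. Summed signals add 2 to the power of each value over all listed genes with a probe set, including those below the filter level. Named beside the 9 genes were the targeted gene, every pathway list gene past 2-fold and, in lists with fewer, up to 2 with the largest difference. Marker genes past 2-fold were named as well, with Cdh5 and Pecam1. Outside this rule, Vegfd, Vwf, Rgs5 and Myh11 were named as below the filter level, and Sox7 and Sox17 after their values were seen. The 9 genes and all lists were chosen with earlier results of these data known. Counting by size was tested on simulated data. Python 3.11.15, pandas 2.3.3 and statsmodels 0.14.6 were used.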

Additional observations from a re-analysis of the deposited data

How the results depend on the processing

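Each group has 1 array, which limits precision, and signal over background is unknown. No paired analysis was possible because each group holds 1 array, and no array could be left out. The 9 gene differences were recomputed with the mean or median of all probe sets, without probe sets whose names end in _s_at or _x_at, with each array centred on its median, and with a lowess trend removed. All 45 values kept their sign, and 43 stayed within 0.32 (the robust SD over genes) of the value reported. For most settings the sign was fixed beforehand. Means and medians could not change sign, since all probe sets of a gene shared it, nor move for genes with 1 probe set. No brightest probe set of the 9 genes ended in _s_at or _x_at, and centring moved all 9 by the same amount. Vegfa was 0.48 with the mean and with the median of its 2 probe sets. The counts depended on size by construction. At 1.5-fold, 4 of the 9 genes were higher and 2 lower, and of the 93 pathway genes analysed 6 were higher and 15 lower. Of all genes analysed, 5.06% were higher and 6.08% lower at that size. At 3-fold, 0 of the 9 were lower, and of the pathway genes 0 were higher and 4 lower, where 0.179% of all genes analysed were higher and 0.699% lower. The remaining 29 of 36 counts, which include those with no filter or a filter at the 60th percentile, stayed within 1.5 times.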
